A study of Rattus norvegicus with 35 samples.

Results

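Transcripts of 10 genes that handle reactive oxygen species, or respond to them, were described in the olfactory epithelium of newborn, adult and old rats. The genes were the superoxide dismutases Sod1, Sod2 and Sod3, catalase (Cat), the glutathione peroxidases Gpx1 and Gpx3, the peroxiredoxin Prdx6, and Hmox1, Nqo1 and Gclc. Their probes were chosen by gene symbol alone, from the gene name or the description in the scanner files, so 10 genes were taken from the 35561 gene names on the array, and 12 of its 41012 probes matched (2 each for Sod1 and Gpx1, 1 for each other gene). All 12 were above background on all 35 arrays, none was saturated, and all were among the 23668 transcripts expressed in common by the 4 litters, the adult and the old rats. Where a gene had a pair of probes, the one with the higher mean signal stood for it.

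The RNA came from Brown Norway rats without genetic change or treatment, hybridised to 1-colour Agilent whole rat genome arrays. The newborn group held 19 pups aged 3 to 5 days from 4 litters: 4 pups in L1, then 5 in each of L2, L3 and L4, with 1 array a pup from 1 side of the nose. The adult rats were 4 males of 9 weeks and the old rats 4 males of 22 months, each with an array for either side, averaged here to 1 value a rat. The sex of the pups is not given, so age and sex cannot be told apart in any comparison with pups, and pups of 1 litter share a mother.

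Superoxide, a by-product of respiration, is converted to hydrogen peroxide by superoxide dismutases in the cytosol (Sod1), the mitochondrial matrix (Sod2) or outside the cell (Sod3). Catalase, glutathione peroxidases and peroxiredoxins then reduce the peroxide, and Gclc, the catalytic subunit of glutamate-cysteine ligase, makes the glutathione that many of these reactions consume. Hmox1, which degrades haem, Nqo1, which reduces quinones, and Gclc are textbook targets of the transcription factor Nrf2, released from its inhibitor Keap1 under oxidative stress. The olfactory epithelium lies in the inhaled air stream and holds sensory neurons that are replaced throughout life, supporting sustentacular cells rich in detoxifying enzymes, glands and basal cells.

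The probes are 60 bases long. The first 30 bases are shown for both Gpx1 probes, because their calls differed in the comparison of newborn with old rats, and for Sod2 and Hmox1, the members that differed among litters. No capitals are used because no part of a probe is singled out.

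Gpx1, first probe: aggcgctttcgcaccatcgacatcgaaccc
Gpx1, second probe: cggggggaggtttttccatgacggtgtttc
Sod2: ttcttaattaaatgtattgttaggcactgt
Hmox1: gcgatgggtcctcacactcagtttcctgtt

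In the rn3 build named by the files, the Gpx1 probes lie at chr16_random:1046293-1046352 and chr16_random:1046407-1046466, the Hmox1 probe at chr19:13974162-13974221 and the Sod2 probe at chr1:41865917-41865950, a stretch of 34 bases for a probe of 60. The Sod1 probes lie at chr11:29810826-29810885 and chr11:29810963-29811970. The other members lie at chr14:63383857-63383916 (Sod3), chr3:88579491-88581435 (Cat), chr10:40329751-40331218 (Gpx3), chr19:37261860-37261919 (Nqo1), chr8:82780716-82780775 (Gclc) and chr13:76839304-76839363 (Prdx6). The second Sod1 probe and those of Cat and Gpx3 span 1008, 1945 and 1468 bases of genome, more than their length, so they bridge introns. Whether each probe lies in coding or other exon sequence is not given in the sources used here.

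The 250 bases before the transcription start (RefSeq, build GRCr8) were found for 7 of the 10 genes. They were searched on both strands for TGACNNNGC, the core of the antioxidant response element that Nrf2 binds, and for GGGCGG, the GC box bound by Sp1. The first motif was in the Sod2 window alone of these 7, against 10.1% of the 33469 promoters searched, and the second in 6 windows (Sod1, Sod2, Gpx1, Gpx3, Nqo1 and Gclc), against 30.5%. A motif outside the 250 bases would not be found, so a window without it does not show that the gene lacks it. The Sod2 window, chr1:50050169-50050418 on the minus strand, is printed because it holds both; capitals mark the first motif, on the opposite strand from 35 to 27 bases before the start.

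Sod2 promoter: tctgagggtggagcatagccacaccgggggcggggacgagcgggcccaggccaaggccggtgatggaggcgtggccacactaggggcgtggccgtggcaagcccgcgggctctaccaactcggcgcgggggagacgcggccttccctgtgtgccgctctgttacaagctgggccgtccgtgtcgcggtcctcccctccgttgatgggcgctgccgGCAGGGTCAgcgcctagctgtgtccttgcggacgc

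A level below is the log2 of the intensity over the median of its array, and differences are in log2 units. The median intensity ran from 42.1 to 87.7 on newborn, 81.6 to 162 on adult and 37.1 to 55.3 on old arrays. L1 and the old rats were scanned on 1 day, L2 to L4 on 2 other days, and the adult rats on a further 2 days with an earlier release of the scanner software, so adult age and scan day cannot be told apart. Of the markers of mature olfactory neurons 8 of 8 were expressed in common, and of sustentacular cells 5 of 7, without Cyp1a2 and Sult1c2. Of all 41012 probes, 23668 were. Other lists had 3 of 3 (red cells), 4 of 4 (horizontal basal cells), 7 of 8 (macrophages), 4 of 8 (neutrophils) and 3 of 7 (endothelium). These counts therefore do not test the tissue label. All 8 neuronal markers were lower in newborn than in adult and in old rats (26.7% and 31.5% of all transcripts). Of the 7 markers of dividing cells, 6 were higher in both comparisons (39.7% and 28.4%). In such bulk samples, fewer cells of a type and less RNA per cell cannot be told apart.

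Over all 23668 transcripts the median change was 0.15 for newborn minus adult, -0.03 for newborn minus old and 0.18 for old minus adult. These shifts grew with signal: among the 500 transcripts nearest in level to Sod1 (a comparison chosen after the data were seen), the median was 1.02 for newborn minus adult. Quantile normalization between arrays, which gives all arrays 1 distribution, moved the median over all transcripts to -0.025 for newborn minus adult. Members with strong signals are therefore given under both scalings.

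Of the 10 members, 4 rose and 2 fell in newborn compared with adult rats (limma, adjusted p under 0.01), against 66.4% of all transcripts called, 39.7% higher and 26.7% lower. Sod1, Sod3, Gpx1 and Hmox1 were higher in pups, although Sod1 reversed under quantile normalization, and Gpx3 and Gclc were lower. Compared with old rats, 3 members were lower in pups (Sod1, Gclc and Prdx6) and none was higher, against 59.9% of all transcripts, 28.4% higher and 31.5% lower; at an unadjusted p under 0.05 there were 4 in all. From adult to old age 5 members rose (Sod1, Sod3, Gpx1, Hmox1 and Prdx6) and Gpx3 fell, against 47.2% of all transcripts, 31.4% higher and 15.9% lower. The median change of the members was 0.22, -0.28 and 0.76 in these comparisons, in the order given.

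The quantile-normalized values gave 2 members higher and 5 lower for newborn against adult rats, and 1 higher and 1 lower for old against adult rats. Among the transcripts called, the share that was higher moved too, from 59.8% to 47.3% for newborn minus adult and from 66.4% to 49.7% for old minus adult. Of all 23668 transcripts, quantile normalization gave 7490 higher and 8338 lower for newborn minus adult. For old minus adult it gave 5347 higher and 5416 lower. For newborn against old rats the count stayed at 3 lower members, beside 6729 transcripts higher and 8103 lower.

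**Figure D1:**
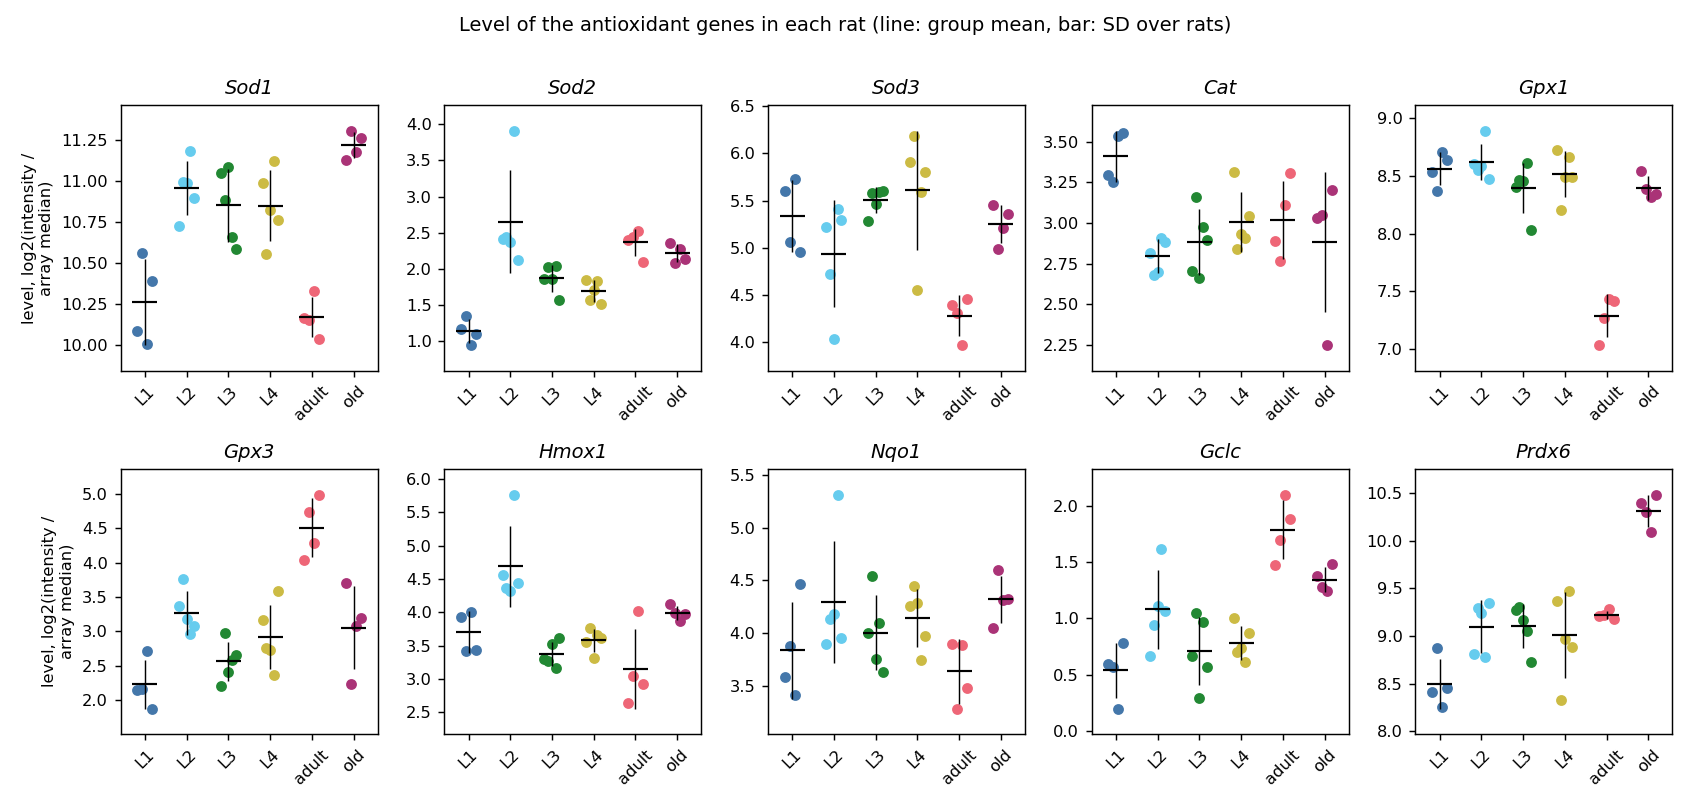
Level (log2 of intensity over the array median) of each of the 10 genes in each rat, by litter (L1 to L4), adult and old; points are rats, lines are group means and bars the SD over rats. Gpx1 was lowest in the 4 adult rats, Gpx3 highest in them, Prdx6 highest in the 4 old rats, and 1 L2 pup stood high for Sod2, Hmox1 and Nqo1.

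**Figure D2:**
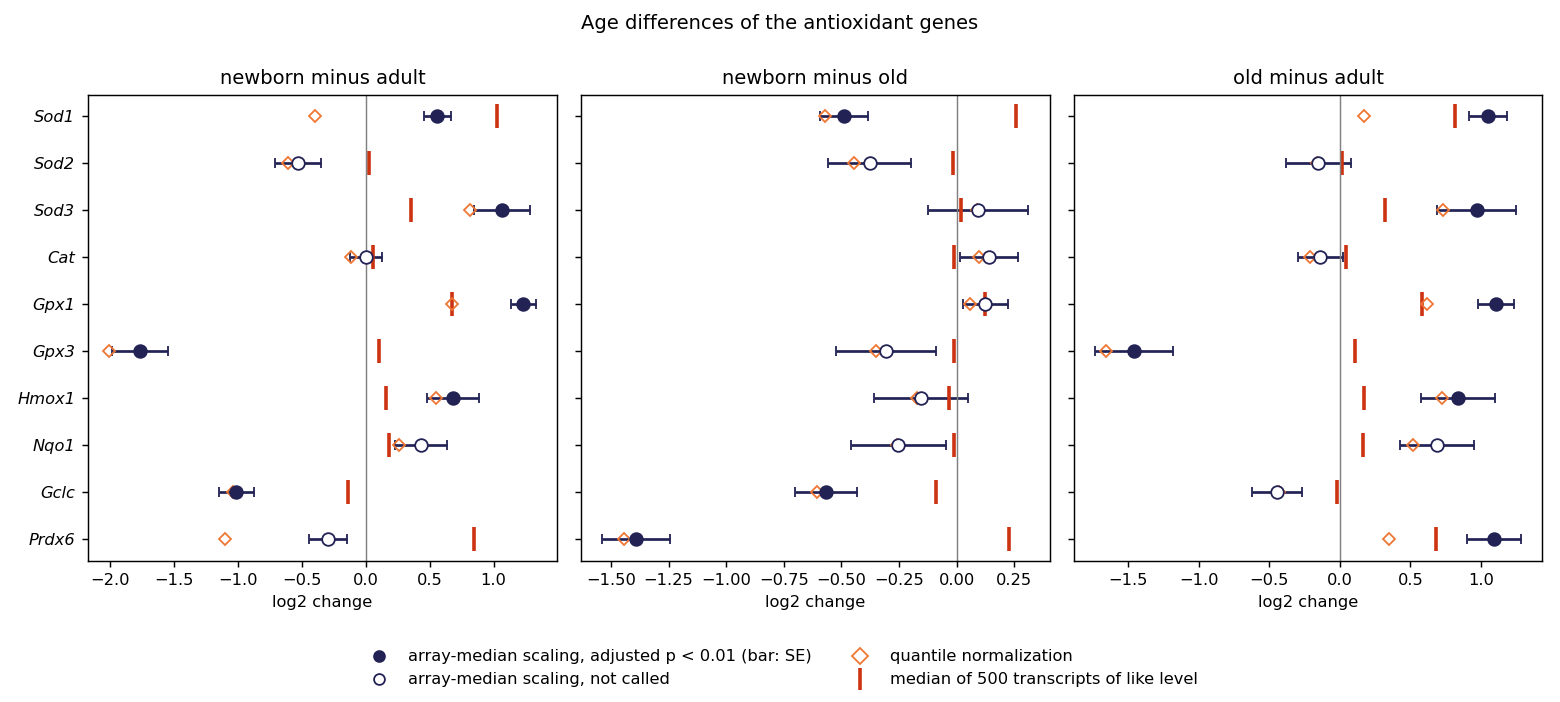
Difference between ages of each gene (circles, with SE; filled where adjusted p was under 0.01), the same after quantile normalization (diamonds) and the median of the 500 transcripts of like level (red ticks), on a log2 axis. Quantile normalization turned Sod1 from 0.56 to -0.40 for newborn minus adult and moved Prdx6 from -0.30 to -1.10.

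Among the enzymes that remove superoxide, Sod1 had a level of 10.17, 10.16, 10.33 and 10.04 in the adult rats and of 11.13, 11.31, 11.18 and 11.26 in the old rats. The pups ran from 10.01 to 11.18 around a median of 10.83. All old rats were thus above all adult rats, while the pups overlapped with both.

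Old rats exceeded adult rats by 1.05 ± 0.13 (SE; 2.07-fold, adjusted p = 4.82e-07), and the second probe gave 1.15. Pups exceeded adult rats by 0.56 ± 0.11 (adjusted p = 3.83e-05) with the array-median scaling, but were lower by the quantile-normalized value of -0.40 (adjusted p = 4.8e-05), and of -0.30 with normexp background correction before it. The old minus adult difference was 0.17 after quantile normalization (adjusted p = 0.13). The difference of newborn minus old rats was -0.49 ± 0.11 (adjusted p = 2.27e-04) and held under quantile normalization, at -0.57.

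Sod2 was measured at 2.40, 2.44, 2.53 and 2.10 in adult rats and at 2.36, 2.09, 2.28 and 2.14 in old rats, a difference of -0.15 ± 0.23 (adjusted p = 0.597). L1 pups ranged from 0.94 to 1.34, below every other pup, and L2 from 2.13 to 3.91. The lowest group mean was that of L1 (1.14) and the highest that of L2 (2.65), beside 2.37 in adult rats. The high mean of L2 rested on the 1 pup at 3.91. Its littermates averaged 2.34 and reached at most 2.44, below the highest adult rat.

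The newborn minus adult difference in Sod2 was -0.53 ± 0.18 (adjusted p = 0.0113) and the newborn minus old difference -0.38 ± 0.18 (adjusted p = 0.0673). Without rat 24, the L2 pup at 3.91, both passed the threshold, at -0.61 (adjusted p = 2.26e-06) and -0.46 (adjusted p = 1.10e-04). The first also passed with rat 24 kept, after quantile normalization (-0.61, adjusted p = 4.54e-03), with 75th percentile scaling (adjusted p = 2.26e-03), with the rat as a random block over arrays (adjusted p = 2.19e-03) and without adult rat 16 (adjusted p = 9.98e-03). With newborn taken as L2 to L4 they were -0.30 (adjusted p = 0.173) and -0.145 (adjusted p = 0.516).

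Sod3, the secreted enzyme, had levels of 4.40, 4.31, 3.97 and 4.46 in adult rats and of 5.46, 4.99, 5.21 and 5.36 in old rats. Pups spread most widely, from 4.04 to 6.19 with a median of 5.46. Adult rats lay below all old rats and below all pups except rat 23 of L2, at 4.04, which fell within the adult range.

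Sod3 was higher in pups than in adult rats by 1.06 ± 0.22 (2.09-fold, adjusted p = 1.12e-04) and in old than in adult rats by 0.97 ± 0.28 (adjusted p = 4.58e-03). The latter call was lost under quantile normalization (0.73, adjusted p = 0.0362) and without adult rat 15 (0.87, adjusted p = 0.0182), old rat 17 (0.90, adjusted p = 0.0156) or old rat 20 (0.94, adjusted p = 0.013). It was lost too, at the same size, with slide (adjusted p = 0.0222) or scan day (adjusted p = 0.0472) as a random block. Pups and old rats differed by 0.09 ± 0.22 (adjusted p = 0.716).

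Among the enzymes that remove peroxide, Gpx1, the main cytosolic glutathione peroxidase, had levels of 7.04, 7.27, 7.43 and 7.42 in adult rats and of 8.54, 8.39, 8.31 and 8.34 in old rats. Pups ran from 8.04 to 8.89 with a median of 8.54. Adult rats were below every pup and every old rat.

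The newborn minus adult difference of Gpx1 was 1.23 ± 0.10 (2.35-fold, adjusted p = 3.59e-11) and the old minus adult difference 1.11 ± 0.12 (adjusted p = 6.52e-08). After quantile normalization they were 0.67 and 0.62. The second probe gave 1.76 and 1.36, so the sign did not depend on the probe, but the probes disagreed between pups and old rats: 0.12 ± 0.10 (adjusted p = 0.255) for the first and 0.40 ± 0.10 (adjusted p = 1.10e-03) for the second.

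Gpx3, the glutathione peroxidase of plasma and extracellular fluid, went the other way. Its levels were 4.04, 4.73, 4.28 and 4.99 in adult rats, 3.70, 2.24, 3.07 and 3.20 in old rats, and 1.88 to 3.76 in pups (median 2.72). Adult rats were above all other rats.

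Gpx3 was lower in pups than in adult rats by -1.76 ± 0.22 (3.39-fold, adjusted p = 9.04e-08), and lower in old than in adult rats by -1.46 ± 0.28 (adjusted p = 9.35e-05). The quantile-normalized differences were -2.002 and -1.65. The sides of the nose of 1 adult rat differed by as much as 1.59, and the median difference between sides was 0.77 in adult and 0.27 in old rats, against a median of 0.18 over the probes and both ages.

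Prdx6, a peroxiredoxin that also acts on phospholipids, had levels of 10.40, 10.30, 10.09 and 10.48 in old rats and 9.21, 9.21, 9.28 and 9.18 in adult rats. Pups ranged from 8.26 to 9.47 with a median of 8.97. Old rats were above every other rat, and the pups spread to both sides of the adult values.

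Prdx6 was lower in pups than in old rats by -1.39 ± 0.15 (2.62-fold, adjusted p = 1.24e-08), against a median of 0.23 for the 500 transcripts of like level, and was -1.45 after quantile normalization. It was higher in old than in adult rats by 1.09 ± 0.19 (adjusted p = 3.03e-05), which became 0.35 (adjusted p = 0.0619) under quantile normalization. The newborn minus adult difference was -0.30 ± 0.15 (adjusted p = 0.074) with the array-median scaling and -1.10 (adjusted p = 2.34e-08) with quantile normalization.

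Sustentacular markers differed between ages as well. The log2 of their summed intensity over the array median was 12.77 to 12.97 in old rats, 12.00 to 12.20 in adult rats and 11.06 to 12.18 in pups. Of the 5 tested, 2 were higher in old than in adult rats (31.4% of all transcripts). All 5 were lower in pups than in old rats (31.5% of all transcripts). Prdx6 and Sod1 had these directions, as did markers of mature olfactory neurons. Of those 8, 3 were higher and 0 lower in old than in adult rats (31.4% and 15.9%), and 8 were lower in pups than in old rats (31.5%). In pups against adult rats 4 of the 5 sustentacular markers were lower and 1 was higher (26.7% and 39.7% of all transcripts). Sod1 was higher in pups with the array-median scaling and lower with quantile normalization. Their part in the results was not tested.

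Cat had the smallest span of group means among the members, 0.61. Its levels were 2.77 to 3.31 in adult rats, 2.25 to 3.20 in old rats and 2.66 to 3.56 in pups. The newborn minus adult difference was 0.00 ± 0.13 (adjusted p = 0.975), and the largest gap between sides, 1.44, was in an old rat.

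Hmox1, inducible haem oxygenase, had levels of 2.64, 3.04, 4.02 and 2.92 in adult rats and of 4.13, 3.995, 3.87 and 3.97 in old rats. Pups ran from 3.17 to 5.77 with a median of 3.61. All pups of L1 (3.42 to 4.01), L3 (3.17 to 3.61) and L4 (3.32 to 3.76) lay within the adult range. All pups of L2 (4.33 to 5.77) lay above it. The means of L1 to L4 were 3.70, 4.69, 3.38 and 3.58, beside 3.16 in adult rats. The adult rat 15, at 4.02, lay within the old range, and the other adult rats lay below all old rats.

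Hmox1 was higher in pups than in adult rats by 0.68 ± 0.20 (adjusted p = 4.08e-03) and in old than in adult rats by 0.84 ± 0.26 (adjusted p = 7.94e-03). Both calls lay near the threshold. The first was lost without adult rat 13 (0.51, adjusted p = 0.0425), rat 14 (0.64, adjusted p = 0.017) or rat 16 (0.60, adjusted p = 0.023). It was also lost when each litter counted once (adjusted p = 0.0587), after quantile normalization (0.55, adjusted p = 0.0171) and with scan day as a random block (adjusted p = 0.0157). The same held with 75th percentile scaling (adjusted p = 0.0174), normexp before quantile normalization (adjusted p = 0.0197) and the methods' t-test (adjusted p = 0.129). The second was lost without any 1 of adult rats 13, 14 and 16 or of the 4 old rats, at differences between 0.67 and 0.88. This second call was also lost after quantile normalization (0.72, adjusted p = 0.0201), with slide (adjusted p = 0.0195) or scan day (adjusted p = 0.0451) as a random block and when each litter counted once (adjusted p = 0.0281). Further losses came with 75th percentile scaling (adjusted p = 0.0149), normexp before quantile normalization (0.0232) and the methods' t-test (0.103). A fit of adult and old rats alone (0.0151) and one without the filter on dim probes (0.0144) lost it too.

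Markers of blood cells also differed between ages, but did not follow Hmox1 in every comparison. Hmox1 was not called between pups and old rats, where 2 of 3 red cell markers were higher and 0 lower in pups (28.4% and 31.5% of all transcripts). Macrophage markers there were 2 of 7 higher and 4 lower (28.4% and 31.5% of all transcripts). Of 4 neutrophil markers tested, 4 were higher in pups than in adult rats (39.7% of all transcripts). The log2 of summed macrophage markers was 7.40 to 7.96 in adult rats, 8.36 to 9.00 in old rats and 7.40 to 8.40 in pups. Of the 7, 3 were higher and 1 lower in old than in adult rats (31.4% and 15.9% of all transcripts). Red cell markers (3 of 3 expressed in common) summed to 5.74 to 6.79 in adult rats, 7.40 to 8.58 in old rats and 7.97 to 10.03 in pups. Their part in the result was not tested.

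Nqo1 was not called between ages in the fit of all 6 groups. Its levels were 3.90, 3.28, 3.89 and 3.47 in adult rats, 4.05, 4.60, 4.32 and 4.32 in old rats and 3.41 to 5.32 in pups (median 3.997). Old rats were above adult rats without overlap, but the difference of 0.69 ± 0.26 had an adjusted p of 0.0286, of 7.13e-03 without pup 24, which shares the variance estimate, of 2.88e-03 when each litter counted once and of 4.98e-03 in a fit of adult and old rats alone.

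Gclc was lower in pups than at both other ages. Its levels were 1.48, 1.69, 2.10 and 1.88 in adult rats, 1.37, 1.28, 1.24 and 1.49 in old rats and 0.20 to 1.62 in pups (median 0.74). The only pup to overlap with adult or old rats was rat 24, at 1.62, and adult and old rats overlapped at 1.48 and 1.49.

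Pups had less Gclc than adult rats by -1.01 ± 0.14 (2.02-fold, adjusted p = 3.77e-07) and than old rats by -0.57 ± 0.14 (adjusted p = 7.27e-04), a call lost with scan day as a random block (adjusted p = 0.0105). The old minus adult difference was -0.44 ± 0.175 (adjusted p = 0.0326). After quantile normalization these were -1.04, -0.60 and -0.43.

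L1 and the old rats were the only groups of different age scanned on the same day, and they share neither slide nor rat with each other. Between them 4 members were lower in L1 (Sod1, Sod2, Gclc and Prdx6) and Cat was higher, against 48.5% of all transcripts called, 17.9% higher and 30.6% lower. Prdx6 differed most, at -1.82 ± 0.19 (3.53-fold, adjusted p = 1.78e-08), with L1 at 8.41, 8.87, 8.26 and 8.45. Sod1 differed by -0.96 ± 0.13 (adjusted p = 1.58e-06), Gclc by -0.81 ± 0.18 (adjusted p = 3.46e-04) and Sod2 by -1.08 ± 0.23 (adjusted p = 3.46e-04).

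Cat was higher in L1 than in old rats by 0.53 ± 0.16 (adjusted p = 6.97e-03), a call lost without old rat 19 (0.32, adjusted p = 0.0489), L1 rat 11 (0.49, adjusted p = 0.0227) or L1 rat 12 (0.48, adjusted p = 0.0234). At the same size it was lost with slide (adjusted p = 0.0385) or rat (adjusted p = 0.0685) as a random block and in a fit of these groups alone (adjusted p = 0.042). The Gpx1 difference was 0.17 ± 0.12 (adjusted p = 0.256), and the Sod3 difference 0.08 ± 0.28 (adjusted p = 0.808). Gpx3, at -0.82 ± 0.28 (adjusted p = 0.0137), passed the threshold without L1 rat 11 (-0.99, adjusted p = 6.65e-03), old rat 18 (-1.09, adjusted p = 1.46e-03) or L4 rat 35, which changes the variance alone (adjusted p = 9.84e-03).

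L1 also differed in level from the other litters, in which litter and scan day cannot be told apart. Its Cat levels were 3.25 to 3.56, against 2.66 to 3.31 in the other pups, and its Prdx6 mean of 8.50 below those of L2 to L4, at 9.10, 9.11 and 9.01. With newborn taken as L2 to L4 alone, the counts called were again 6 against adult and 3 against old rats.

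L2, L3 and L4 were spread over the same 2 scan days, but most pups of each litter shared a slide with that litter alone, so litter and slide nearly coincide. Among them 2 members differed (F-test in the limma fit): Hmox1 and Sod2, against 11.1% of all transcripts. The L2 levels of Hmox1 were 4.56, 4.37, 4.33, 5.77 and 4.44, those of L3 were 3.31, 3.27, 3.53, 3.17 and 3.61, and those of L4 were 3.55, 3.76, 3.32, 3.66 and 3.61. Every L2 pup was above every pup of L3 and L4, and the means of L2 and L3 lay 1.32 apart (2.49-fold, adjusted p over the litters = 4.38e-04).

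For Sod2 the L2 levels were 2.41, 2.44, 2.37, 3.91 and 2.13, those of L3 1.85, 2.02, 1.85, 2.04 and 1.57, and those of L4 1.84, 1.57, 1.71, 1.84 and 1.51. L2 was again above both other litters without overlap, by 0.96 over L4 (1.94-fold, adjusted p over the litters = 3.36e-03). Neither call was lost without rat 24: the ranges of litter means were then 1.05 for Hmox1 and 0.64 for Sod2, and both passed the threshold. The remaining L2 pups shared a slide that held no other litter, so this fit cannot tell litter from slide. With rat 24 kept and slide as a random block, Hmox1 and Sod2 also passed (adjusted p = 1.47e-03 for Hmox1 and 5.59e-03 for Sod2). The Sod2 call was lost in a fit of these 3 litters alone (adjusted p = 0.03).

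The other 8 members had adjusted p from 0.0939 (Sod3, range 0.67) to 0.885 (Prdx6, range 0.10). Sod3 passed the threshold without the L4 pup rat 33 (range 0.94, adjusted p = 8.74e-03), which stood at 4.55 against 5.59 to 6.19 in its littermates.

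**Figure D3:**
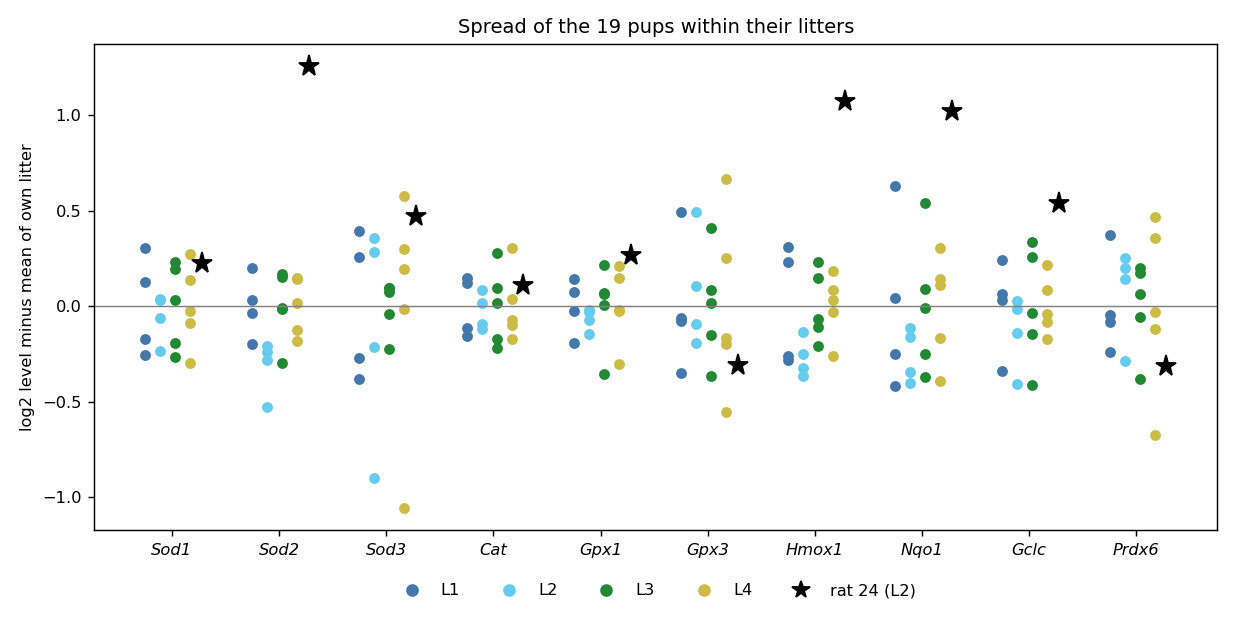
Level of each gene in each of the 19 pups, minus the mean of the pup's own litter, in log2 units; colours mark litters and the star rat 24 of L2. Rat 24 lay over 1 unit above its litter mean for Sod2, Hmox1 and Nqo1, and below it for Gpx3 and Prdx6.

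Rat 24 stood apart from the other L2 pups in several members at once. Its array was on a different slide and scan day from those of its 4 littermates, which shared 1 slide, so within the litter the pup cannot be told apart from its slide and scan day. Against the mean of its 4 littermates it was 1.57 higher for Sod2 (2.97-fold), 1.35 higher for Hmox1 (2.54-fold), 1.28 higher for Nqo1 (2.42-fold) and 0.68 higher for Gclc (1.60-fold). For all 4 genes it was the highest of the 19 pups: the next highest were at 2.44, 4.56, 4.54 and 1.11.

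Of the 10 members, 8 were highest in rat 24 within the litter, against 29.6% of all transcripts, and Gpx3 and Prdx6 were lowest in it, against 33.3%. A difference of 1 or more was found in 3 of 10 members, against 3.5% of all transcripts, and 3.68% of transcripts set rat 24 above its litter by the Dixon ratio. With 1 such pup there is no replicate and no test. Rat 28 of L3, hybridised on the same slide, had 1.85 for Sod2, 3.53 for Hmox1, 3.76 for Nqo1 and 0.30 for Gclc, none of them the highest of its litter, and the part of the slide was not tested.

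Other genes of the pathway were examined in the same pup, and those named here were chosen after their values were seen. Of 52 pathway genes tested, 30 were highest and 7 lowest in rat 24 within L2, against 29.6% and 33.3% of all transcripts. Higher by 1 or more were 6 of the 52, against 3.5% of all transcripts: Ggt1 (3.90 against a mean of 1.31), which starts the breakdown of extracellular glutathione, Gpx2 (6.35 against 3.91), an epithelial glutathione peroxidase, Srxn1 (0.46 against -1.02), which restores oxidised peroxiredoxins, Cbr3 (5.09 against 3.84), a carbonyl reductase, Txnrd1 (5.84 against 4.70), the cytosolic thioredoxin reductase, and Mt1 (10.28 against 9.17), a metallothionein.

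Markers of other cells also moved in this pup. The neutrophil markers (4 of 8 expressed in common) summed to 9.58 on the log2 scale, against 7.28 to 7.86 in its littermates, with S100a8 (6.06 against 2.97 to 4.38), S100a9 and Lcn2 above all littermates. The other 5 neutrophil markers were not above them: Np4, Camp, Ngp and Ela2 lay within the range of the littermates and Ltf stood at the floor of the scale (-6.64). Macrophage markers summed to 8.40 against 7.92 to 8.18, ciliated cell markers to 9.90 against 8.61 to 9.41, and horizontal basal cell markers to 10.43 against 8.91 to 9.52. Of the macrophage markers, Cd68 was lowest in rat 24 (5.71 against 5.79 to 6.05), Csf1r lay within the range of the littermates and the others were above it. Of the basal cell markers, Krt15 (9.92 against 7.82 to 8.54) and Krt14 were above the littermates. Krt5 and Tp63 lay within their range. Mature olfactory neuron markers summed to 8.14 against 8.42 to 8.89. Sustentacular markers (5 of 7 expressed in common) summed to 12.18 against 11.62 to 12.01, with Krt18 highest in rat 24 (11.98 against 10.99 to 11.34), the enzymes Cyp2g1, Cyp2a3 and Ugt2a1 lowest in it (Cyp2g1 at 6.17 against 7.54 to 8.11) and Ermn within the range of the littermates. Their part in the result was not tested.

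Over the 19 pups, deviations from the litter mean were correlated between members for 45 pairs, with two-sided permutation within litters. Nqo1 and Gclc gave Pearson's r = 0.81 (permutation p = 3.4e-04, adjusted p = 0.0153) and Spearman's rho = 0.72 (permutation p = 1.59e-03, adjusted p = 0.0571), and r was 0.69 without rats 12 and 24, the farthest for Nqo1. Sod1 and Prdx6 gave r = 0.70 (permutation p = 0.002, adjusted p = 0.045) and rho = 0.70 (permutation p = 2.54e-03, adjusted p = 0.0571), and r was 0.58 without rats 30 and 32. No pair had both adjusted p under 0.05, and pups share slides and array scaling, which a correlation between genes also reflects.

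The rest of the pathway was followed through a list of 56 genes on the array, of which 52 were expressed in common and tested. Between newborn and adult rats 24 were higher and 12 lower in pups (39.7% and 26.7% of all transcripts), but 10 and 21 after quantile normalization. Between newborn and old rats 7 were higher and 29 lower in pups (28.4% and 31.5% of all transcripts), and 7 and 32 after quantile normalization. Old rats were higher than adult rats for 31 and lower for 4 (31.4% and 15.9% of all transcripts), or 18 and 8 after quantile normalization. The shares in brackets, and the counts below by role that are to be read against them, are of the array-median scaling. Of all 23668 transcripts, quantile normalization gave 7490 higher and 8338 lower for newborn minus adult. It gave 6729 and 8103 for newborn minus old, and 5347 and 5416 for old minus adult. The median change was 0.29, -0.37 and 0.63 in the order given, beside 0.15, -0.03 and 0.18 over all transcripts.

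By role, of 7 genes of Nrf2 and its regulators, 6 were lower in pups than in old rats, against 31.5% of all transcripts, and Bach1, a repressor of Hmox1, was higher. Nfe2l2, the gene of Nrf2 itself, differed by -0.79 ± 0.11 and its inhibitor Keap1 by -0.47 ± 0.06. Against adult rats 2 of the 7 were lower in pups, Nfe2l2 by -1.13 and Mafk by -1.49, near the 26.7% of all transcripts. Only Bach1 was higher (39.7% of all transcripts), by 2.25 ± 0.13 (4.77-fold, adjusted p = 1.99e-13).

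Both copper chaperones, Ccs, which loads Sod1, and Atox1, which hands copper to the pumps of the secretory pathway, were lower in pups than in old rats and higher in old than in adult rats, Ccs by 1.34 ± 0.12 in the latter. Of the 6 peroxiredoxins and sulfiredoxin, 4 were lower in pups than in old rats (31.5% of all transcripts) and 5 were higher in old than in adult rats (31.4%). Prdx4, the peroxiredoxin of the endoplasmic reticulum, went the other way, at 2.28 ± 0.10 for newborn minus old (4.86-fold, adjusted p = 1.19e-15) and -0.57 ± 0.13 for old minus adult.

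Of the pathway genes, those with the largest changes included a pair of glutathione peroxidases. Gpx6, a glutathione peroxidase of olfactory tissue, was lower in pups by -2.43 ± 0.18 than in adult and by -3.999 ± 0.18 than in old rats (16.0-fold, adjusted p = 1.87e-15), and higher in old than in adult rats by 1.57 ± 0.23. Gpx7, an endoplasmic reticulum peroxidase, was higher in pups than in old rats by 3.76 ± 0.17 (13.6-fold, adjusted p = 2.39e-15) and lower in old than in adult rats by -2.98 ± 0.22.

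Among the other extremes, Ftl1, the light chain of the iron store ferritin, was higher in pups than in adult rats by 1.73 ± 0.08 (3.32-fold, adjusted p = 8.41e-16). Msra, which repairs oxidised methionine, was higher in old than in adult rats by 1.43 ± 0.19 (adjusted p = 8e-07). Differences of single pathway genes are given with the array-median scaling only. Shifts over all transcripts grew with signal, and Ftl1 (11.75 in pups, 10.02 in adult rats), Gpx6 and Ccs had strong signals. An expressed sequence tag named Mt1a on the array was lower in pups by -1.89 ± 0.37 than in adult and by -2.59 ± 0.37 than in old rats, while the probe of the Mt1 transcript differed by 0.71 and -0.70. Of 14 oxidases that generate oxidants, 7 were tested. Of these 4 were higher and 2 lower in pups than in adult rats (39.7% and 26.7% of all transcripts), 2 higher and 4 lower than in old rats (28.4% and 31.5%), and 2 higher and 0 lower in old than in adult rats (31.4% and 15.9%).

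**Figure D4:**
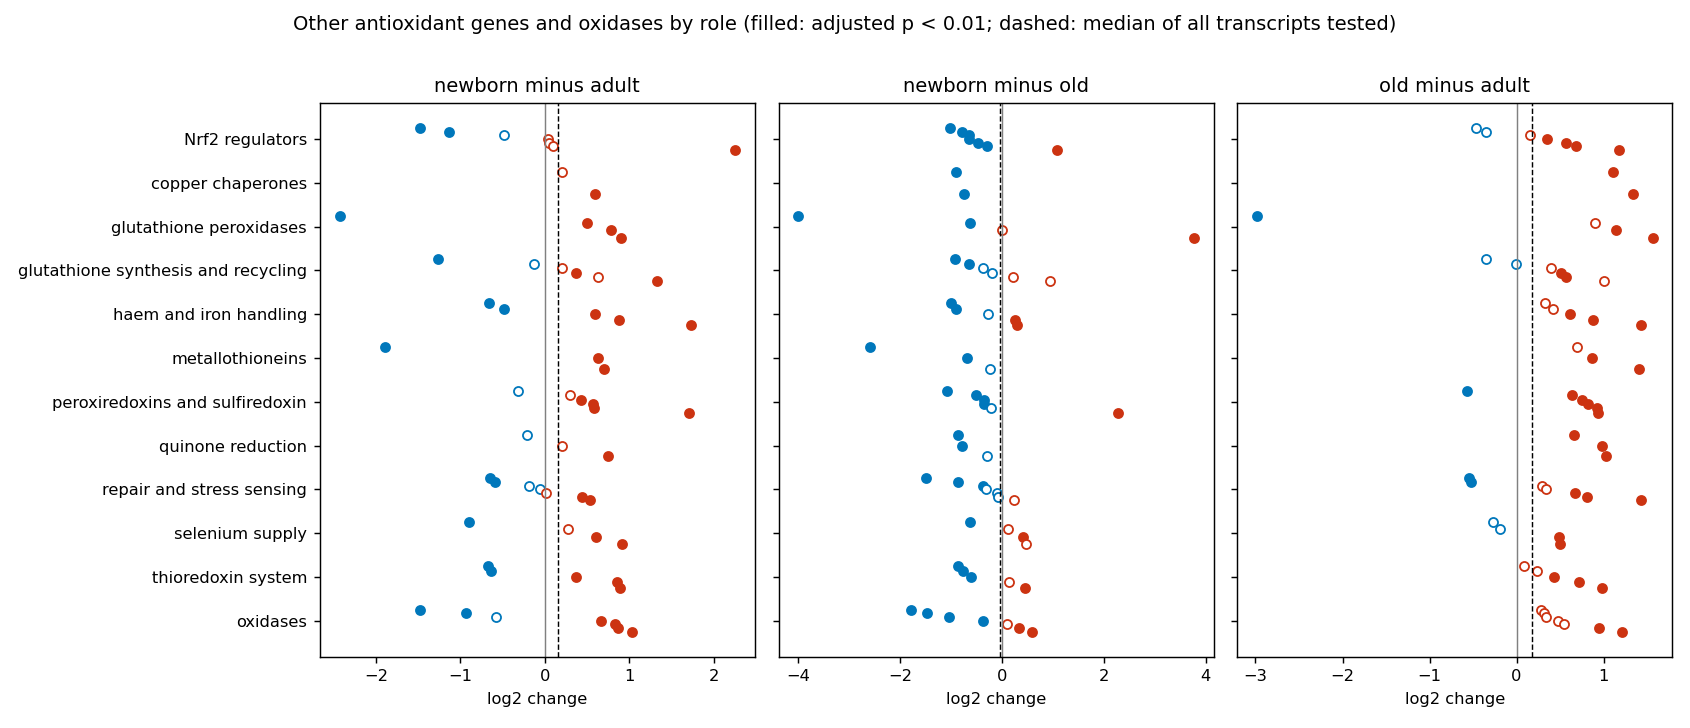
Difference between ages (log2) of each gene of the pathway list and of the oxidases, 1 row for each role; filled points had adjusted p under 0.01, and the dashed line is the median of all transcripts tested. Most points lie below 0 for newborn minus old and above 0 for old minus adult. In the latter 31 of 52 pathway genes were higher in old rats (31.4% of all transcripts). After quantile normalization 18 were, beside 5347 of all 23668 transcripts.

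Transcripts with the most similar pattern over the 6 group means were found for the 8 members whose means spanned at least 1 log2 unit; the likeness is a description, given as the root-mean-square difference of centred means. Sod1 was nearest to Gnb1, a G protein beta subunit (0.03), and to the keratin Krt18 (0.06), which is on the sustentacular marker list. Prdx6 was nearest to the glutathione transferase Gstm4 (0.04) and the cytochrome P450 Cyp2f4 (0.06). Gpx1 was nearest to C9h2orf49 (0.05) and to Ftl1 (0.07).

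Gclc was nearest to Rnf149 (0.05) and Pcdh1 (0.06), Sod3 to Clybl and Cklfsf5 (0.08 for both), and Sod2 to Dapp1 (0.12) and Ctnnal1 (0.13). Gpx3 was nearest to Galntl1 and Dync1li1 (0.14 for both). Hmox1 had the least close neighbours, Igsf6 (0.19) and C1h16orf54 (0.20).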

How the data were processed

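The authors hybridised 1 RNA sample per Agilent 4x44K array (Cy3) and deposited Feature Extraction output (9.5.1.1 for adult rats, 9.5.3.1 for the others) with background-subtracted intensity per spot, and a matrix of ratio values floored at 0.01 and divided by array and probe medians. Here the deposited intensity was averaged over spots of a probe (non-uniform and population outlier spots left out), divided by the array median over 41012 probes, floored at 0.01 and taken as log2, and both arrays of a rat were averaged. limma 3.58.1 (R 4.3.3) fitted the 6 groups over 27 rats, with newborn as the mean of 4 litters, and p-values were adjusted by Benjamini-Hochberg over 23668 transcripts above background on at least 3 arrays of each litter and 6 of 8 of adult and of old rats. The number of arrays limits precision. Members, lists and tests were chosen with earlier results of these data known. Named genes were all members, the 2 most similar transcripts of members spanning at least 1 log2 unit, and the 2 most changed pathway genes in each direction; Nfe2l2, Keap1, Mafk, Ccs, Atox1, Mt1 and the genes and markers given for rat 24 were named outside this rule, after their values were seen. Per the sources, pups are separate animals. The fit was tested on simulated data. Alternatives were other scalings, the authors' matrix, rat, slide or scan day as a block, litter means, other filters, the methods' t-test, the second probe and leaving out each rat. Names of 10735 probes came from RefSeq accessions. Marker lists for horizontal basal cells (4 tested), glands (3) and endothelium (3) gave 1, 0 and 1 markers higher and 0, 1 and 1 lower in pups than in old rats (28.4% and 31.5% of all transcripts).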

Additional observations from a re-analysis of the deposited data

Results flagged for a closer look

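Of 72 combinations of a probe and a group, 4 held a rat whose gap to the nearest other rat, as a share of the group's range, was above Dixon's 95% critical value; chance flags about 1 in 20. All 4 were the same pup, rat 24 of L2, on the high side. Its levels were 3.91 for Sod2 (share 0.82), 5.77 for Hmox1 (0.84), 5.32 for Nqo1 (0.80) and 9.19 for the second Gpx1 probe (0.75). The same rule set rat 24 above its litter for 3.68% of 23664 transcripts, against 0.0972% to 0.871% for the other L2 pups, and below it for 2.24%. Other rats also stood above their groups: old rat 20 for 2.55% and L4 rat 34 for 1.49% of transcripts. Rat 34, like rat 24, was on another slide and scan day than its littermates.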

How the results depend on the processing

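Counts of called members kept within 1.5 times their value in all but 3 settings. The old against adult count fell from 6 to 2 with quantile normalization, the litter 1 against old count from 5 to 2 with the methods' t-test, and the count over litters 2 to 4 from 2 to 1 in a fit of those litters alone; the cause was not tested. Leaving out 1 rat at a time gave 5 to 7 members for newborn against adult, 3 to 4 for newborn against old, 4 to 7 for old against adult, 4 to 6 for litter 1 against old and 2 to 3 over the litters, and 32 to 38, 33 to 37 and 31 to 37 pathway genes in the age comparisons. The methods' t-test called 5, 3 and 4 members in the age comparisons. Only Sod1 in newborn against adult rats reversed: -0.40 with quantile normalization and -0.30 with normexp, then quantile. Of the other single values, 1898 kept their call, 49 lost and 21 gained it; those not called either way were not read for direction. The second probe called Gpx1 for newborn against old. Taking newborn as litters 2 to 4 was chosen after seeing the data. No paired analysis was possible because no rat number is shared between groups.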
